A study of Mus musculus with 25 samples.

Results

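Mitosis and chromosome segregation genes, a list of 42 genes that drive or carry out the division of replicated chromosomes, were followed through mouse liver regeneration after partial hepatectomy (PHx). A gene was counted as measured when a probe carried its name in the list of changed mRNAs that accompanies the study, and the brighter probe was used where a gene had several. By this rule 35 of the 42 genes were measured by 38 of the 35979 probes with values, with Cdk1 listed under its older name Cdc2a. Cdc20, Cdc25b, Plk1, Aurka, Kif11, Cenpf and Mki67 had no row among the named probes at hand and were not analysed here. The study had placed all 35 measured genes in 1 cluster of its own clustering of these same arrays, so that their rise after PHx is not independent evidence.

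The adult liver is mostly quiescent, and hepatocytes re-enter the cell cycle when part of the organ is removed. Before division, DNA is copied in S phase, and the sister chromatids are held together by cohesin. Cyclin B and Cdk1 then start mitosis, kinetochores built on the centromeres attach chromosomes to the spindle, and the spindle checkpoint holds back the anaphase-promoting complex until all are attached. Separase then opens cohesin, and midzone proteins and kinesins complete the separation of the daughter cells. Transcripts of many of these genes are known to accumulate late in the cell cycle, after those of the replication machinery.

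Total RNA of 25 livers of male Balb/c mice, given as 8 weeks old in the sample labels, was hybridised to 25 single-colour (Cy3) arrays, 1 liver per array. The groups were 5 mice each at 4, 12, 36 and 72 h after PHx, in which the left lateral and median lobes were removed, and 5 sham operated mice. All 5 sham livers are labelled as taken 4 h after surgery and were the control for every time, so that at 12, 36 and 72 h the hours since surgery differed as well as the operation. Levels are log2 of the deposited intensity, differences are log2 differences of group means ± SE from limma, and a gene was called at a Benjamini-Hochberg adjusted p under 0.05 over all 35979 probes.

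All 35 genes were higher at 36 h and again at 72 h than in sham livers, whereas none was called higher at 4 or 12 h. From 36 to 72 h 6 genes were called higher, led by Cdkn3, Ccnb2 and Pttg1, 6 lower, led by Esco2, Top2a and Aurkb, and 23 were not called. With single arrays left out the falls numbered 2 to 8. They numbered 2 in a fit of these 2 groups alone and 0 on a generalised log scale. The 5 livers taken at 36 h differed widely from each other in nearly all 35 genes at once, and the 5 livers taken at 72 h did not.

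**Figure D1:**
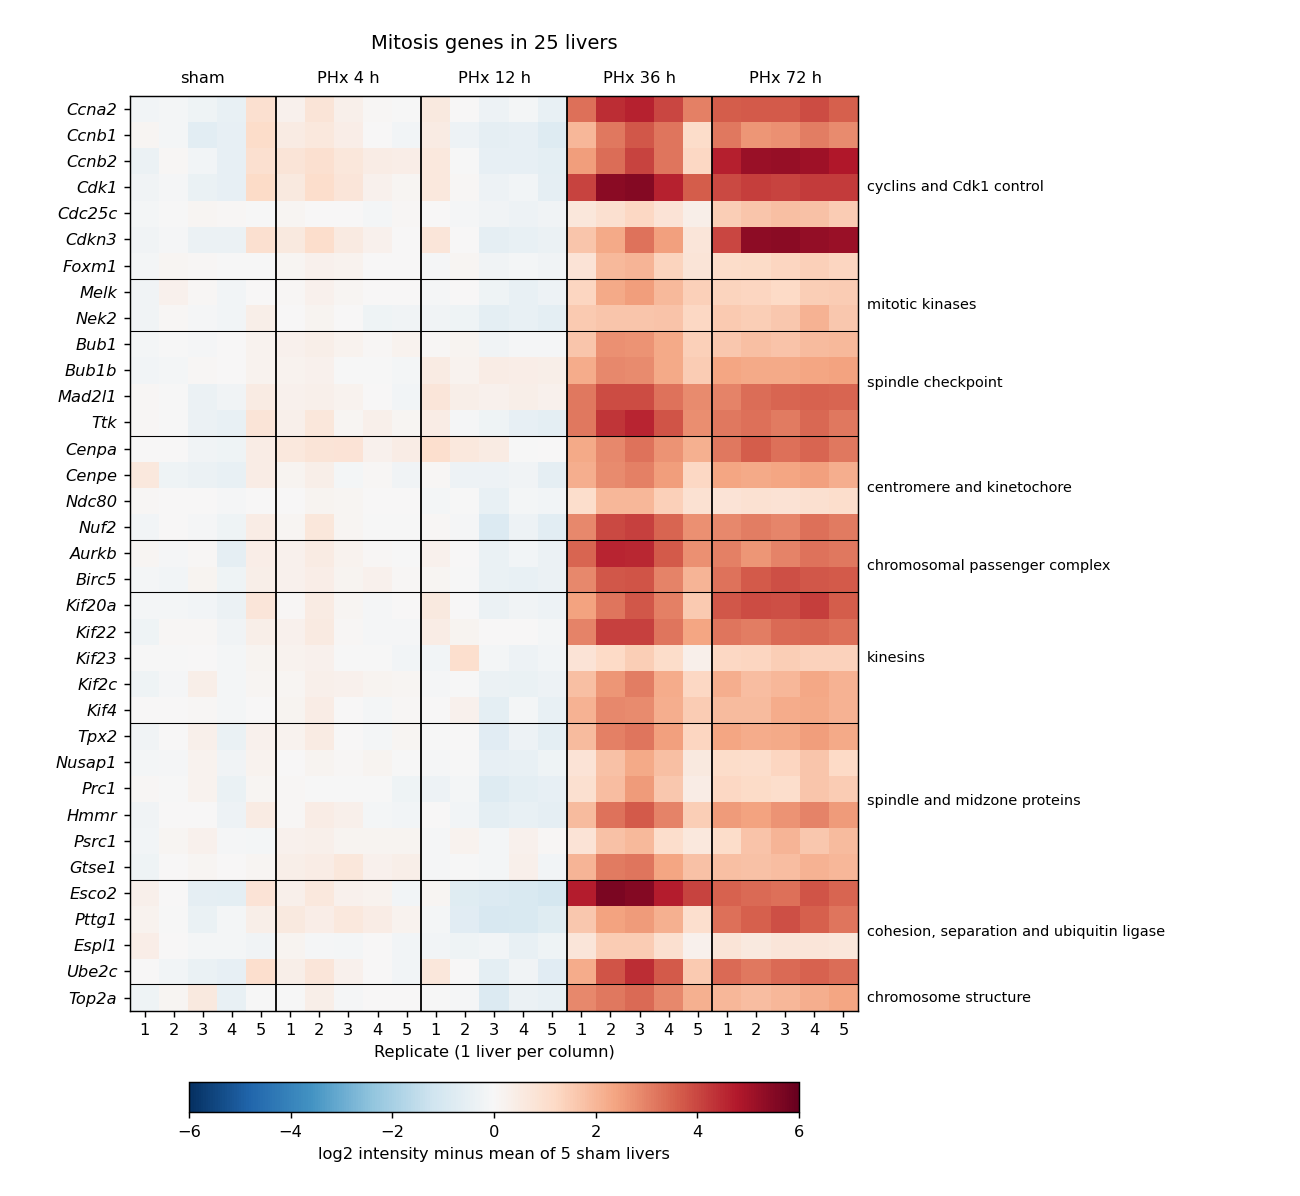
Log2 intensity of the 35 measured genes (rows, grouped by role) in each of the 25 livers (columns, replicates 1 to 5 of each group), as the difference from the mean of the 5 sham livers; red is higher and blue is lower. The colour is deep at 36 and 72 h only, and replicate 5 at 36 h is paler than the other livers of its group in 34 of 35 genes.

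Regulatory sequence of the genes was examined at the start site, because promoters of many late cell cycle genes are known to hold the cell cycle genes homology region, read as TTTGAA or TTCGAA, and CCAAT boxes, whereas promoters of many replication genes hold E2F sites such as TTTCGCGC and TTTGGCGC. RefSeq promoters of build GRCm38.p6, from 250 bases before to 50 bases after the start, were matched by symbol for 28 of the 35 genes. The genes not matched were Ccna2, Cdc25c, Foxm1, Aurkb, Kif20a, Tpx2 and Esco2. The promoters of 4 genes are shown. Ccnb2 and Cdkn3 rose most between 36 and 72 h, Top2a fell in that step, and Cdk1, the kinase at the centre of the group, was not called in it. Each is written 5′ to 3′ on the strand of its gene, with every match to 1 of the 5 motifs, on either strand, in capitals.
Ccnb2, chr9:70421505-70421804, minus strand: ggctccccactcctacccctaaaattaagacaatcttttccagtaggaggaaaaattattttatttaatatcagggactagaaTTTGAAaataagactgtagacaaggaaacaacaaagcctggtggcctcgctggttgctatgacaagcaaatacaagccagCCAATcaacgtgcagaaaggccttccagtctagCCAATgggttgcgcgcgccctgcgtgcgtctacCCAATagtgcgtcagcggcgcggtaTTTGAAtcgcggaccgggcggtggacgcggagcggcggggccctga
Cdkn3, chr14:46760291-46760590, plus strand: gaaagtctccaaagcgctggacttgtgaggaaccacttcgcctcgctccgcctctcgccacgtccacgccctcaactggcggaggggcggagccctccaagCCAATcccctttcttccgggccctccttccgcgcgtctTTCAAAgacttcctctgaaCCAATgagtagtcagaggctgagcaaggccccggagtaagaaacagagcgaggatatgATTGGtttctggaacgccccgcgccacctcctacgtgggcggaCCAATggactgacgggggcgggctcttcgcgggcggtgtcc
Cdk1, chr10:69352863-69353162, minus strand: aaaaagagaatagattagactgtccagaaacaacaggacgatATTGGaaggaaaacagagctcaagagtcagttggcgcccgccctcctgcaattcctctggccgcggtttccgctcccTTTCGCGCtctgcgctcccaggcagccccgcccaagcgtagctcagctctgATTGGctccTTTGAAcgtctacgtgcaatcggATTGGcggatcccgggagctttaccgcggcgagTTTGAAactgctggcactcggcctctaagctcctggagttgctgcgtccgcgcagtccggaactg
Top2a, chr11:99024140-99024439, minus strand: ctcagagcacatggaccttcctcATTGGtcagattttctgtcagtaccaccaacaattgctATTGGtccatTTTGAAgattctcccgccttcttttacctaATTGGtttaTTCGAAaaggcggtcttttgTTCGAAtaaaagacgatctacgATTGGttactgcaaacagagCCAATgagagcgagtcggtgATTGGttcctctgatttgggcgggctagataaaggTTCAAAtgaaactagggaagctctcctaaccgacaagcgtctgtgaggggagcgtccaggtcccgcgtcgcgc

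Ccnb2 held 2 copies of TTTGAA and 3 CCAAT boxes in this window, and Cdkn3 held 1 and 4. Cdk1 held 2 copies of TTTGAA and 3 CCAAT boxes and, in addition, TTTCGCGC. Top2a held 2 copies of TTTGAA, 2 of TTCGAA and 6 CCAAT boxes. Over the 28 matched genes, TTTGAA or TTCGAA was found in 18 genes (64.3%), against 21.7% of all 27025 genes with a promoter and 20.2% of the 17492 protein-coding ones. A CCAAT box was found in 20 of the 28 genes (71.4%), against 41.1% of all genes and 42.3% of protein-coding genes. Either E2F motif was found in 1 of the 28 genes (3.57%), against 0.929% of all genes. A list of DNA replication genes, of which 22 of 29 were matched, had the E2F motifs in 9 (40.9%), TTTGAA or TTCGAA in 6 (27.3%) and a CCAAT box in 12 (54.5%). These are counts of letters in 1 fixed window per start and were not tested, and binding of any factor was not measured.

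Before the rise, at 4 h, none of the 35 genes was called in either direction, where 6.12% of all probes were called higher and 6.35% lower. At an unadjusted p under 0.05, 2 of the 35 were higher, Cenpa (0.58 ± 0.20, adjusted p = 0.0585 in limma) and Gtse1 (0.41 ± 0.19, adjusted p = 0.185), and none was lower. Gtse1 was the 1 gene whose 5 livers at 4 h all lay above the sham livers, as 5.85% of all probes did, and no gene had all of them below, as 4.96% did. The median difference of the 35 genes was 0.14, against 0.0034 over all probes, and ranged from 0.09 without replicate 2 at 4 h to 0.24 without sham replicate 5. Without sham replicate 5, Cenpa was called higher at 4 h (0.69, adjusted p = 0.0347), as it was without replicate 4 at 4 h. Sham replicate 5 had the highest level of the 5 sham livers in 22 of the 35 genes, where each sham array was the highest of the 5 for 15.5% to 24.7% of all probes. Replicate 2 at 4 h was the highest of its group in 29 of the 35 genes and for 23.7% of all probes.

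By 12 h, 2 of the 35 genes were called lower and none higher, where 15.1% of all probes were lower and 16.3% higher. Nek2, a kinase of centrosome separation, fell by 0.42 (SE 0.12, adjusted p = 0.0109), and all 5 livers at 12 h lay below all 5 sham livers, as for 9.79% of all probes. Pttg1, the securin that keeps separase inactive, fell by 0.67 (SE 0.22, adjusted p = 0.0222), with overlap of the groups. The call of Pttg1 was lost without sham replicate 1 or 5 or without replicate 3 or 4 at 12 h (adjusted p = 0.0548 to 0.0636). Mad2l1 and Bub1b had differences of 0.39 (adjusted p = 0.106) and 0.38 (adjusted p = 0.0792), and Mad2l1 was called higher without sham replicate 5 (0.52, adjusted p = 0.0315). In Bub1b all 5 livers at 12 h lay above all 5 sham livers, as for 10.4% of all probes. At an unadjusted p under 0.05 in limma, 3 of the 35 genes were higher and 3 lower, where 20.5% and 18.9% of all probes were. The median of the 35 genes was -0.19, and -0.09 without sham replicate 5. The DNA replication list differed in its count, with 13 of 29 genes called higher and 2 lower at 12 h and a median of 0.31.

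In the step from 4 to 12 h, 3 of the 35 genes were called lower and none higher, where 13.2% of all probes were called lower and 14% higher. They were Pttg1 (-1.13 ± 0.22, adjusted p = 0.000283), Esco2 (-0.93 ± 0.27, adjusted p = 0.0116) and Nek2 (-0.36 ± 0.12, adjusted p = 0.0296). In 5 genes, Pttg1, Espl1, Ndc80, Kif2c and Nusap1, all livers at 12 h lay below all at 4 h, as for 10% of all probes, and in none above, as for 10.2%. The call of Nek2 was kept with 4 of 10 arrays left out 1 at a time, and the calls of Pttg1 and Esco2 with all 10. The count depended on the fit, with 18 genes called lower on a generalised log scale (asinh), 16 in a fit of these 2 groups alone and 10 by the methods' t-test after adjustment (21 before it). That t-test is the general one of the methods, whereas the study picked its changed array probes by regression over time. Without replicate 1 at 12 h, 5 genes were called lower. Esco2 was not called on its second probe (-0.57, adjusted p = 0.107). The median of the 35 genes in this step was -0.34, and 3 genes had a difference above 0.

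From 12 to 36 h all 35 genes rose, where 14.4% of all probes were called higher and 15% lower. The median difference was 2.61, against -0.0076 over all probes, and in 33 genes all 5 livers at 36 h lay above all 5 livers at 12 h, as for 10.1% of all probes, whereas 9.27% of all probes lay wholly below. Kif23 and Cdkn3 were the exceptions with overlap, and Kif23 was not called by the methods' t-test after adjustment (adjusted p = 0.0693).

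Against sham, all 35 genes were called higher at 36 h, where 13.6% of all probes were higher. The median was 2.37 and the range 0.81 to 4.93, from Cdc25c to Esco2. In 33 of the 35 genes the 5 livers at 36 h lay above the 5 sham livers, as for 10.3% of all probes (8.4% lay wholly below), and in Cdkn3 and Espl1 replicate 5 at 36 h lay below 1 sham liver. At 72 h all 35 were again called higher, where 15.1% of all probes were, with a median of 2.34 and a range of 0.71 to 5.04, from Espl1 to Cdkn3. In all 35 genes the livers at 72 h lay above the sham livers, as for 11% of all probes. Of the other 247 mRNA probes at hand in the same cluster of the study, 220 (89.1%) were called higher at 36 h and 240 (97.2%) at 72 h, so that the counts alone do not set these genes apart from their cluster. The median difference of those probes was 0.86 at 36 h and 1.04 at 72 h. In these bulk samples, a change in the number of dividing cells and a change of RNA per cell cannot be told apart.

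Cyclins and the control of Cdk1 comprised 7 measured genes. All 7 were higher at both late times, with a median of 2.63 at 36 h and 3.71 at 72 h, and 3 of them rose between the 2 times. Cdkn3, a phosphatase that removes the activating phosphate from cyclin-dependent kinases, had the largest difference from sham at 72 h of all 35 genes. Its log2 levels in replicates 1 to 5 were 6.39, 6.54, 6.28, 6.24 and 7.59 in sham livers, 7.22, 7.67, 7.13, 6.86 and 6.63 at 4 h and 7.35, 6.65, 6.08, 6.15 and 6.26 at 12 h. They were 8.25, 8.86, 9.88, 9.05 and 7.34 at 36 h and 10.62, 11.95, 12.01, 11.89 and 11.77 at 72 h. Every liver at 72 h was above every liver at 36 h, although replicate 1 at 72 h stood well below the other livers of its group. The difference from sham grew from 2.07 ± 0.37 to 5.04 ± 0.37, which is 32.9-fold, and the step itself was 2.97 ± 0.37 (adjusted p = 4.56e-06 in limma).

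Ccnb2, a B-type cyclin that activates Cdk1 at the entry into mitosis, had levels of 7.09, 7.50, 7.25, 6.92 and 8.41 in sham livers, 8.19, 8.39, 8.10, 7.86 and 7.81 at 4 h and 8.05, 7.43, 6.95, 6.93 and 6.83 at 12 h. Its levels were 9.96, 10.80, 11.49, 10.63 and 8.68 at 36 h and 12.08, 12.61, 12.65, 12.54 and 12.22 at 72 h. The groups at 36 and 72 h did not overlap, and the 36 h livers spread over almost 3 log2 units where the 72 h livers lay close together. Ccnb2 rose by 2.11 ± 0.36 in this step (adjusted p = 0.000222) and was 31.7-fold higher at 72 h than in sham livers. Ccnb1, the other B-type cyclin, did not show a called step, with a difference of 0.27 and a 95% interval of -0.49 to 1.03.

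Cdc25c, the phosphatase that lifts the inhibitory phosphates from Cdk1, was measured by 2 probes. On the brighter probe its levels were 6.45, 6.54, 6.69, 6.62 and 6.52 in sham livers, 7.23, 7.53, 7.80, 7.39 and 6.93 at 36 h and 8.03, 8.24, 8.37, 8.34 and 8.09 at 72 h. At 4 h they were 6.66, 6.59, 6.60, 6.47 and 6.63 and at 12 h 6.60, 6.48, 6.37, 6.26 and 6.36, within or just below the sham range. On the other probe they were 5.91, 5.89, 5.79, 5.76 and 6.12 in sham livers, 6.91, 7.62, 8.0, 7.64 and 6.67 at 36 h and 8.23, 8.52, 8.59, 8.74 and 8.31 at 72 h. On both probes all livers at 72 h lay above all at 36 h. The step from 36 to 72 h was 0.84 ± 0.11 (adjusted p = 8.38e-06) on the first and 1.11 ± 0.20 (adjusted p = 0.000366) on the second. Cdk1 itself had a difference from sham of 4.64 ± 0.31 at 36 h and 4.11 ± 0.31 at 72 h, Ccna2, the cyclin of S and G2 phase, had 3.88 ± 0.27 and 3.71 ± 0.27, and neither step between the times was called. Foxm1, a transcription factor of late cell cycle genes, had smaller differences of 1.37 ± 0.17 and 1.24 ± 0.17. Its probe lay at percentile 29.4 of all probes in sham livers, near the dim end. Those of Bub1 (29.9), Ndc80 (30.1), Melk (31), Hmmr (31.7) and Kif23 (32) were about as dim.

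**Figure D2:**
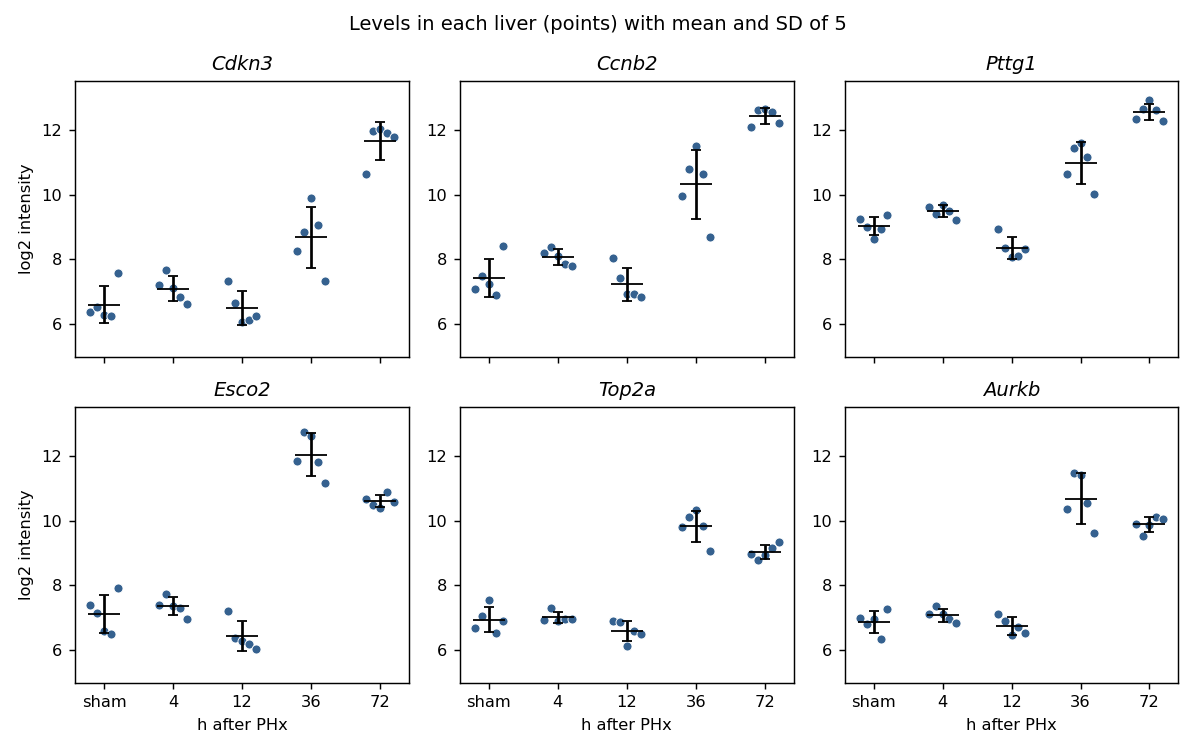
Log2 intensity of 6 genes in each liver (points) by group, with the mean and SD of 5 livers (bar and whiskers); the first row rose and the second fell between 36 and 72 h. The 72 h points of Cdkn3, Ccnb2 and Pttg1 lie above all 36 h points, those of Esco2 lie below all of them, and those of Top2a and Aurkb overlap with the lowest 36 h liver.

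Mitotic kinases outside the checkpoint were Nek2 and Melk. Nek2 had levels of 6.86, 7.15, 6.99, 6.90 and 7.41 in sham livers, 7.07, 7.24, 7.07, 6.79 and 6.87 at 4 h and 6.83, 6.81, 6.47, 6.62 and 6.49 at 12 h. At 36 h they were 8.64, 8.74, 8.74, 8.76 and 8.29, and at 72 h 8.64, 8.56, 8.66, 9.16 and 8.67. The 12 h livers lay below all sham livers, and 4 of the 5 livers at 36 h were nearly equal. Nek2 was higher by 1.57 ± 0.12 at 36 h and by 1.68 ± 0.12 at 72 h. Melk, a kinase first known from embryos, was higher by 1.89 ± 0.16 and 1.36 ± 0.16, and fell in the step between the times by 0.53 (SE 0.16, adjusted p = 0.035). That call was kept with 4 of 10 arrays left out 1 at a time.

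The spindle checkpoint was represented by Bub1, Bub1b, Mad2l1 and Ttk, and all 4 were higher at both late times with medians of 2.89 and 2.79. None of the 4 was called in the step from 36 to 72 h. Mad2l1, the protein that binds and restrains Cdc20, had levels of 8.57, 8.51, 8.17, 8.30 and 9.01 in sham livers, 11.69, 12.43, 12.40, 11.77 and 11.34 at 36 h and 11.49, 11.88, 12.02, 12.03 and 12.0 at 72 h. At 4 h they were 8.75, 8.82, 8.74, 8.55 and 8.34 and at 12 h 9.25, 8.86, 8.78, 8.87 and 8.75. The 36 and 72 h livers overlapped and were all at least 2 log2 units above every sham liver. Mad2l1 had differences from sham of 3.42 ± 0.18 (adjusted p = 3.69e-13) and 3.37 ± 0.18. Ttk, the kinase that starts checkpoint signalling, had 3.72 ± 0.27 and 3.23 ± 0.27. Bub1b, the checkpoint protein BubR1, had 2.36 ± 0.16 and 2.34 ± 0.16, and Bub1, the kinase that recruits checkpoint proteins to the kinetochore, had 2.15 ± 0.17 and 1.78 ± 0.17. The 95% interval of the step was -0.36 to 0.31 for Bub1b and -1.03 to 0.06 for Ttk.

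Among 4 centromere and kinetochore genes, 1 rose and 1 fell after 36 h. Cenpa, the histone H3 variant that marks the centromere, had levels of 8.19, 8.22, 7.98, 7.93 and 8.61 in sham livers, 8.81, 8.98, 9.01, 8.42 and 8.63 at 4 h and 9.19, 8.82, 8.67, 8.15 and 8.19 at 12 h. It had 10.44, 11.06, 11.44, 10.90 and 10.32 at 36 h and 11.35, 11.80, 11.51, 11.67 and 11.34 at 72 h. Replicate 3 at 36 h exceeded the 2 lowest livers at 72 h, so that the groups overlapped. The step was 0.70 ± 0.20 (adjusted p = 0.0238), and the call was lost without replicate 1 or 5 at 36 h or replicate 2 or 4 at 72 h. Ndc80 and Nuf2, partners in the complex that grips the microtubule, had differences from sham of 1.47 ± 0.15 and 3.44 ± 0.22 at 36 h. In the next step Ndc80 fell by 0.55 (SE 0.15, adjusted p = 0.0158), whereas Nuf2 had -0.37 ± 0.22 (adjusted p = 0.385), and the difference between the 2 genes was not tested. The Ndc80 call was lost without replicate 2 or 3 at 36 h. The Ndc80 probe lay at percentile 30.1 of all probes in sham livers, against 44.3 for Nuf2. Cenpe, a kinesin of the kinetochore, had 2.35 ± 0.24 and 2.33 ± 0.24, with a step of -0.01 (95% interval -0.51 to 0.48).

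Aurkb and Birc5 belong to the chromosomal passenger complex, which corrects faulty attachments, Aurkb as its kinase and Birc5 (survivin) as a subunit that targets it. Aurkb levels were 6.99, 6.80, 6.97, 6.35 and 7.29 in sham livers, 10.36, 11.45, 11.42, 10.56 and 9.60 at 36 h and 9.89, 9.54, 9.85, 10.13 and 10.04 at 72 h. At 4 h they were 7.12, 7.38, 7.11, 6.96 and 6.84 and at 12 h 7.12, 6.90, 6.49, 6.73 and 6.52, which overlapped with sham. Birc5 levels were 7.10, 7.10, 7.39, 7.0 and 7.61 in sham livers, 10.11, 10.96, 11.03, 10.23 and 9.26 at 36 h and 10.50, 10.92, 11.12, 10.95 and 10.91 at 72 h. At 4 h these were 7.48, 7.65, 7.42, 7.49 and 7.30 and at 12 h 7.34, 7.22, 6.85, 6.81 and 6.89. For both genes, replicate 5 was the lowest liver at 36 h, and in Aurkb it lay within the range of the 72 h livers. Aurkb fell by 0.79 (SE 0.25, adjusted p = 0.0421), a call kept with only 3 of 10 arrays left out 1 at a time, and Birc5 had a step of 0.56 ± 0.22 (adjusted p = 0.129).

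Kinesins, the motors that move along spindle microtubules, comprised 5 measured genes, and all were higher at both late times with medians of 2.31 and 2.09. Kif20a, a motor of the midzone and of cytokinesis, had levels of 7.45, 7.44, 7.39, 7.19 and 8.25 in sham livers, 9.97, 10.77, 11.25, 10.57 and 9.12 at 36 h and 11.25, 11.47, 11.43, 11.68 and 11.20 at 72 h. Earlier, its levels were 7.61, 8.02, 7.66, 7.49 and 7.56 at 4 h and 8.13, 7.56, 7.18, 7.31 and 7.24 at 12 h. The highest 36 h liver reached the 2 lowest 72 h livers, and the other livers did not overlap. Kif20a rose by 1.07 ± 0.27 (adjusted p = 0.0104) and was the only 1 of the 5 called in this step. Kif22 and Kif4, motors that act on chromosome arms, had differences from sham of 3.35 ± 0.23 and 2.31 ± 0.19 at 36 h, and 3.28 ± 0.23 and 2.08 ± 0.19 at 72 h. Kif2c, which takes microtubules apart at their ends, had 2.20 ± 0.21 and 2.09 ± 0.21. Kif23, a subunit of the midzone complex centralspindlin, had 0.99 ± 0.19 and 1.35 ± 0.19, and its level at 12 h in replicate 2 was 7.13 where the other 4 livers lay at or below 6.0.

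Spindle and midzone proteins were Tpx2, Nusap1, Prc1, Hmmr, Psrc1 and Gtse1, all 6 higher at both late times, with medians of 1.93 and 1.79. Hmmr, a microtubule-binding protein of the spindle, had levels of 5.90, 6.13, 6.12, 5.82 and 6.61 in sham livers, 6.18, 6.54, 6.44, 6.02 and 5.96 at 4 h and 6.13, 5.98, 5.53, 5.65 and 5.56 at 12 h. At 36 h they were 7.99, 9.39, 9.81, 9.12 and 7.60, and at 72 h 8.65, 8.54, 8.79, 9.08 and 8.66. The 72 h livers all lay within the range of the 36 h livers. Hmmr had differences from sham of 2.67 ± 0.28 and 2.63 ± 0.28. Tpx2, which promotes spindle assembly, had 2.37 ± 0.25 and 2.33 ± 0.25, and Prc1, which bundles midzone microtubules, had 1.49 ± 0.24 and 1.32 ± 0.24. The remaining 3, Nusap1, Psrc1 and Gtse1, lay between 1.24 and 2.49 at 36 h. Gtse1, a protein that binds microtubules, fell in the last step by 0.59 (SE 0.19, adjusted p = 0.0479), and that call was kept with 3 of 10 arrays left out 1 at a time.

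Genes of cohesion and its release showed both directions. Esco2, which acetylates cohesin while DNA is copied, had levels of 7.40, 7.14, 6.58, 6.52 and 7.91 in sham livers, 7.41, 7.75, 7.36, 7.30 and 6.97 at 4 h and 7.22, 6.37, 6.30, 6.20 and 6.05 at 12 h on its brighter probe. They were 11.84, 12.74, 12.62, 11.82 and 11.16 at 36 h and 10.65, 10.49, 10.40, 10.87 and 10.58 at 72 h. Every 72 h liver lay below every 36 h liver. On the second probe the 36 h levels were 9.19, 10.61, 10.68, 10.05 and 9.14 and the 72 h levels 8.36, 8.28, 8.25, 8.73 and 8.37, again without overlap. Esco2 had the largest difference from sham of the 35 genes at 36 h (4.93 ± 0.27, 30.4-fold), and then fell by 1.44 (SE 0.27, adjusted p = 0.000788) on the first probe and by 1.54 (adjusted p = 0.000176) on the second.

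Pttg1 had levels of 9.23, 9.0, 8.62, 8.92 and 9.37 in sham livers, 9.62, 9.41, 9.68, 9.50 and 9.23 at 4 h and 8.92, 8.34, 8.08, 8.12 and 8.31 at 12 h. Later they were 10.63, 11.45, 11.60, 11.15 and 10.02 at 36 h and 12.34, 12.64, 12.91, 12.59 and 12.26 at 72 h. The 12 h livers all lay below the 4 h livers, and the 72 h livers all lay above the 36 h livers. Pttg1 rose by 1.58 ± 0.22 in the last step (adjusted p = 2.46e-05). Its partner Espl1, the separase that cleaves cohesin, had the smallest difference from sham of the 35 genes at 72 h (0.71 ± 0.17, adjusted p = 0.00191), and 0.99 ± 0.17 at 36 h. Ube2c, the ubiquitin-conjugating enzyme of the anaphase-promoting complex, had 3.14 ± 0.39 and 3.37 ± 0.39, with a step of 0.23 (95% interval -0.58 to 1.03).

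Top2a, the topoisomerase that untangles sister chromatids, was measured by 2 probes. Levels on the brighter probe were 6.70, 7.07, 7.54, 6.52 and 6.92 in sham livers, 9.81, 10.10, 10.33, 9.82 and 9.07 at 36 h and 8.96, 8.78, 8.94, 9.15 and 9.34 at 72 h. At 4 h they were 6.93, 7.29, 6.89, 6.97 and 6.98 and at 12 h 6.90, 6.86, 6.13, 6.59 and 6.50. Levels on the other probe were 6.76, 6.64, 6.78, 6.26 and 6.90 in sham livers, 9.47, 10.44, 10.47, 9.46 and 8.77 at 36 h and 9.06, 8.89, 8.92, 9.16 and 9.21 at 72 h. On both, replicate 5 was the lowest 36 h liver, and the other 4 lay above every 72 h liver. Top2a fell by 0.80 (SE 0.20, adjusted p = 0.00822) on the brighter probe, whereas the other probe did not pass, with -0.67 (adjusted p = 0.0577).

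In the step from 36 to 72 h as a whole, 6 of 35 genes were called higher, where 5.37% of all probes were, and 6 lower, where 4.54% of all probes were. This contrast does not use the sham livers. All livers at 72 h lay above all at 36 h in Ccnb2, Cdc25c, Cdkn3 and Pttg1, as for 4.61% of all probes, and below in Esco2, as for 3.91%. The median of the 35 genes was -0.07, and its sign was not stable, since it was 0.08 without replicate 2, 0.10 without replicate 3 and -0.32 without replicate 5 at 36 h. The 23 genes not called had differences of -0.53 to 0.56, and in 18 of them the 95% interval lay within 1 log2 unit on either side of 0. Ccnb2, Cdc25c, Cdkn3, Kif20a, Pttg1, Esco2 and Top2a kept their calls with each of the 10 arrays left out. Among the 6 falls, the count ranged from 2 to 8 when single arrays were left out. It was 2 without replicate 2 or 3 at 36 h, and 3 without replicate 4 at 36 h or replicate 1, 2 or 3 at 72 h. It was 8 without replicate 5 at 36 h. In a fit of these 2 groups alone, Esco2 and Top2a were the 2 genes called lower, and on the generalised log scale 5 genes were called higher and none lower.

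**Figure D3:**
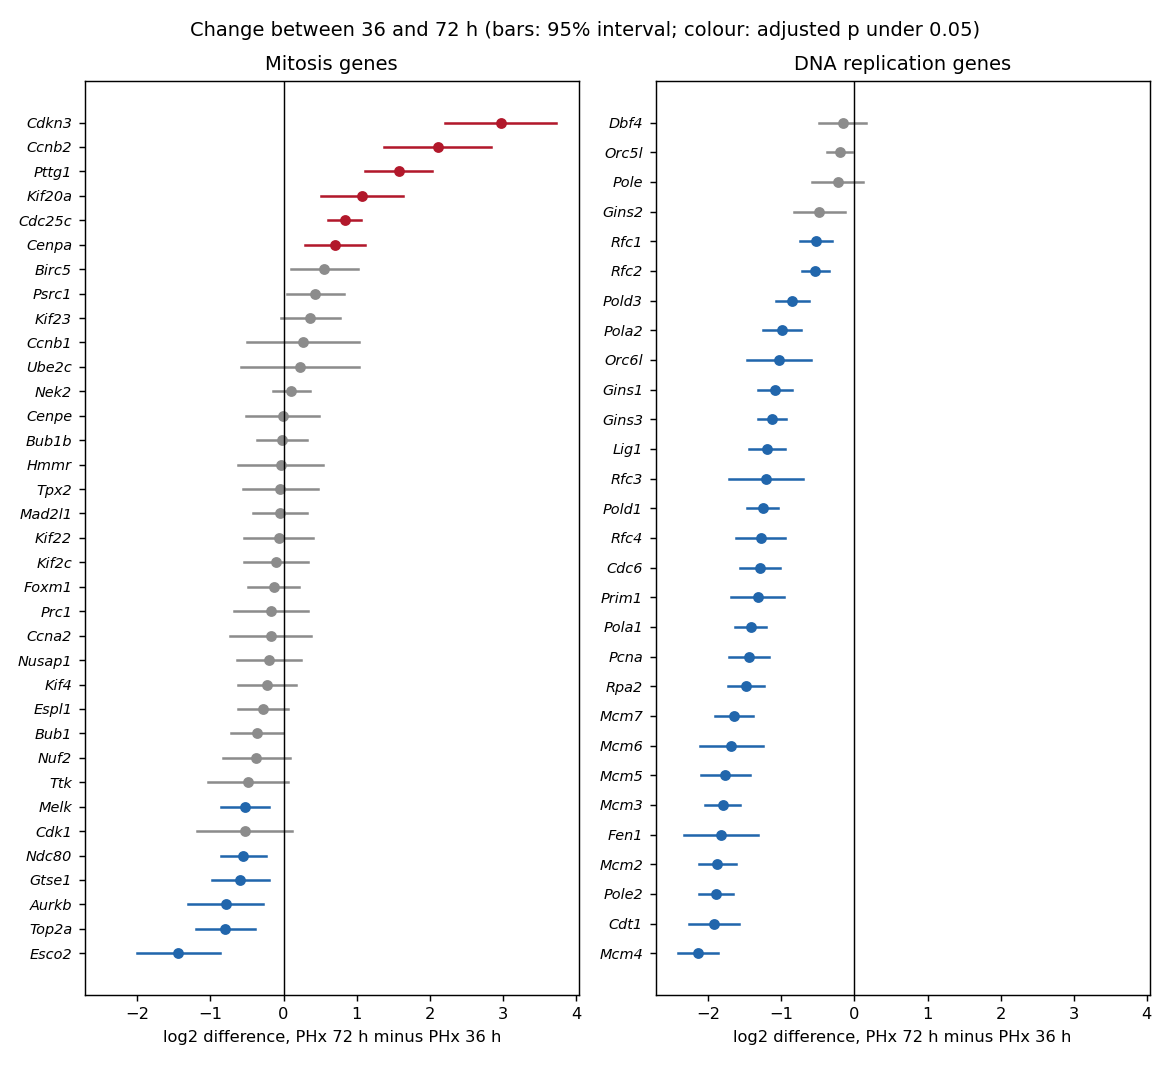
Log2 difference between 72 and 36 h for the 35 mitosis genes (left) and 29 DNA replication genes (right), with 95% intervals from limma; red and blue mark genes called higher and lower, grey genes not called. Mitosis genes lie on both sides of 0, from -1.44 to 2.97, and all 29 replication genes lie below 0.

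The genes of DNA replication served as a group for comparison with the mitosis genes. They were also named only through the study's list of changed probes, in clusters that it describes as upregulated. Their rise is therefore not independent evidence. At 36 h all 29 replication genes were called higher than sham, where 13.6% of all probes were. Their median was 2.32, close to the 2.37 of the mitosis genes. From 36 to 72 h 25 of the 29 were called lower, against 4.54% of all probes, and none higher, with a median of -1.28. The 3 with the smallest p in this step were Pole2, a DNA polymerase epsilon subunit (-1.89 ± 0.11), and the helicase subunits Mcm4 (-2.14 ± 0.13) and Mcm3 (-1.80 ± 0.11), with adjusted p = 1.45e-10, 1.85e-10 and 1.85e-10. At 72 h the median of the replication genes was 1.15 above sham, against 2.34 for the 35 mitosis genes. It was 1.42 for the 56 other mitosis genes described next, nearer to the replication genes. No test of one list against another was run.

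A further 56 genes of mitosis that were not on the list of 42 were measured. They too were named only through the study's list of changed probes, so that their changes are not independent evidence. At 36 h 52 were called higher and 1 lower, with a median of 1.96, where 13.6% of all probes were higher and 12.5% lower. Among 18 centromere and kinetochore genes, 17 were higher, among them Cenph (3.92), Zwilch (3.70), Cenpi (3.41) and Dsn1 (2.46), and 12 of the 18 fell from 36 to 72 h. Of 10 condensin and cohesin genes, 9 were higher, with Cdca5 (3.30), Smc2 (2.96), Ncapg2 (1.93) and Ncaph (2.66) having the smallest p. Nipbl, the loader of cohesin, was lower (-0.58 ± 0.08, adjusted p = 4.56e-06). Spindle and cytokinesis genes were higher in 17 of 19, among them Shcbp1 (4.29), Mphosph1 (1.97), Dlg7 (2.54) and Kifc1 (2.61). All 9 regulators of entry and exit were higher, among them Chek1 (3.80), Trip13 (2.48), Chek2 (2.31) and Gsg2 (1.89). From 36 to 72 h, 29 of the 56 fell, against 4.54% of all probes, and 1 rose, Cdca3 (1.42 ± 0.23), a gene of mitotic entry. The median of the 56 in that step was -0.54. At 72 h 50 of the 56 were called higher than sham and 3 lower, where 15.1% and 13.1% of all probes were.

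The spread between mice was a property of the whole group of genes at 36 h. The median SD of the 35 genes was 0.65 at 36 h, against 0.18 at 72 h, 0.27 in sham livers, 0.19 at 4 h and 0.26 at 12 h. Over all probes the median SD was 0.12 at 36 h and 0.13 at 72 h. Averaged over the 35 genes, the shift from sham was 2.10, 2.99, 3.22, 2.57 and 1.60 in replicates 1 to 5 at 36 h, and 2.46 to 2.76 in the 5 livers at 72 h. Replicate 5 was the lowest of the 36 h livers in 34 of the 35 genes and replicate 3 the highest in 26. For comparison, replicate 5 was the lowest of its group for 15.9% of all probes. In the replication list, replicate 5 was the lowest in 19 of 29 genes and replicate 2 the highest in 21. No slide or scan date was given in the labels, so that a batch could not be examined.

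**Figure D4:**
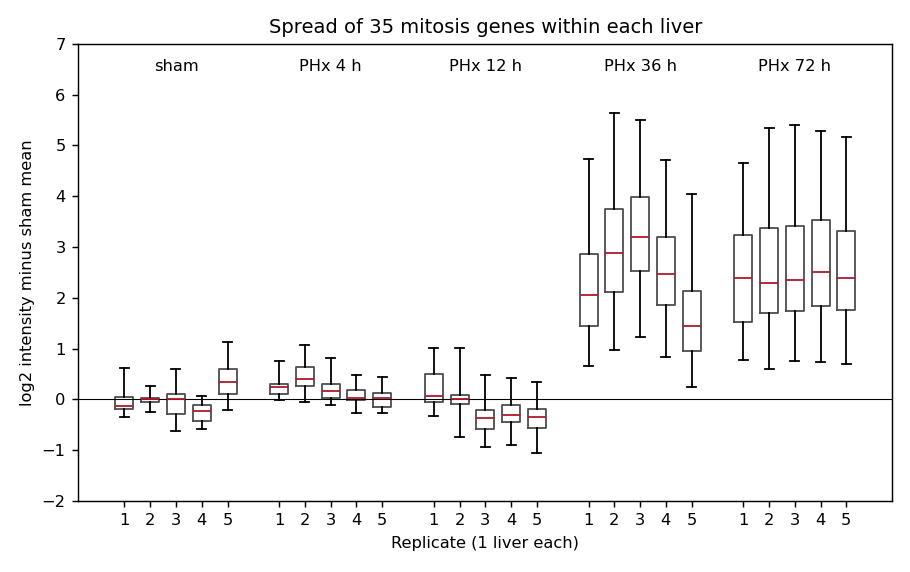
Difference from the sham mean for the 35 genes in each liver (log2; box: quartiles, red line: median, whiskers: lowest and highest gene). The boxes at 36 h shift up and down together from liver to liver, with mean shifts of 1.60 to 3.22, whereas those at 72 h have mean shifts of 2.46 to 2.76.

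Because the genes shifted together in a liver, each gene was also set against the median shift of the 35 genes in the same liver, as a description without a test. Subtracting this median fixes the middle of the 35 genes in every liver, so that moves up and down balance by construction. No share of all probes was computed on this scale. On this relative scale Cdkn3 moved from a mean of -0.34 at 36 h to 2.65 at 72 h, Ccnb2 from 0.47 to 2.60 and Pttg1 from -0.47 to 1.13. Their ranges over the livers did not overlap between the times. Kif20a moved from 0.38 to 1.47, Cdc25c from -1.60 to -0.74, Cenpa from 0.23 to 0.96 and Birc5 from 0.67 to 1.25, also without overlap. In the other direction, Esco2 moved from 2.52 to 1.10, Top2a from 0.47 to -0.30, Aurkb from 1.39 to 0.62 and Cdk1 from 2.23 to 1.72, again without overlap. Gtse1, Ndc80, Melk, Ttk and Nuf2 likewise lay lower at 72 h in all livers, and the remaining genes overlapped. Birc5, Cdk1, Ttk and Nuf2 were not called between the times in limma.

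Markers of liver cell types differed from sham livers as well, and not at the late times alone. Markers, too, counted as measured only when named in the study's list of changed probes. Every marker measured lay in a cluster that the study describes as upregulated or downregulated, so that their directions are not independent evidence. Of 12 hepatocyte markers 9 were measured, and all 9 were lower at 36 and 72 h than in sham livers. Over all probes, 12.5% were called lower at 36 h and 13.1% at 72 h. Already at 4 h 8 of the 9 hepatocyte markers were called lower, and at 12 h 5 were, where 6.35% and 15.1% of all probes were. The summed intensity of the 9 was 320973 to 362757 in sham livers, 201093 to 260788 at 4 h and 207460 to 239221 at 12 h. It was 199777 to 225759 at 36 h and 181996 to 219002 at 72 h. Of 10 leukocyte markers 5 were measured. Prtn3, a protease of myeloid cells (2.21 ± 0.55 at 36 h and 3.16 ± 0.55 at 72 h), Icos and Bank1 were higher at both times, and Spic and Lilrb3 were lower. Their summed intensity was 951 to 1231 in sham livers, 1150 to 2420 at 36 h and 923 to 6183 at 72 h. None of the 3 endothelial, 2 stellate and fibroblast and 1 cholangiocyte markers measured was called higher than in sham livers. At 36 h 5 of these 6 were lower. The 3 endothelial markers were lower already at 4 h, and the 2 stellate and fibroblast markers at 12 h. These 2 were called higher from 12 to 36 h and from 36 to 72 h, and 1 endothelial marker from 12 to 36 h. Of all probes, 14.4% and 5.37% were called higher in these steps. Alb, Apoa1, Ttr, Pecam1, Stab2, Lyve1, Des, Krt19 and Ptprc had no named probe at hand and were not analysed here. No measured marker was listed at 0. The part of cell composition in the rise of the mitosis genes was not tested.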

How the data were processed

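Liver RNA of 25 mice was hybridised to 25 single-colour NCode Mouse Non-coding RNA arrays (Invitrogen), which also carry mRNA probes, 1 liver per array. The deposited values are linear intensities of 35979 probes with values (2 more were blank), already matched between arrays by the authors, with array medians of 97.7 to 102.7. The methods name variance stabilization, whereas the files hold a linear scale, and no background correction to 0 was apparent, so that differences of dim probes are compressed. Correlations between arrays of a group were 0.98 to 1.00. The log2 of these intensities was fitted in limma 3.58.1 (R 4.3.3) with 1 mean per group over all 25 arrays, and p-values were adjusted by Benjamini-Hochberg over all probes. They rest on the spread between mice, 5 per group, taken as 1 variance per gene pooled over all 25 arrays. For the 35 genes the median SD was 0.65 at 36 h and 0.18 to 0.27 in the other groups. The pooled SE does not follow these differences. In fits of 2 groups, 16 genes were lower from 4 to 12 h and 2 from 36 to 72 h (3 and 6 in the pooled fit). The number of arrays limits precision, since intensities carry no count depth. On simulated data for 36 h against sham, with all 35979 probes, 10 of 50 probes changed 1.2-fold were recovered. Of those changed 1.5-fold 43 of 50 were recovered and of those changed 2-fold 47 of 50, with 4 false calls. Simulated probes were independent, with the same SD in every group. The 35 genes at 36 h had a larger SD and shifted together, so that these figures do not carry over to them.

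Probes were named through the gene symbols in the study's list of changed probes, which named 1416 of the 1943 probes with a row at hand, and the authors' own fold changes and p-values there were not used. Genes, lists and tests were chosen with earlier results of these data known. Values in every liver are given for the member of each role with the largest difference from sham at 72 h, the 3 largest and 3 smallest changes from 36 to 72 h, members called at 12 h and genes with 2 probes. Of the other mitosis lists, up to 4 genes each with the smallest p at 36 h and any called lower are named, and of DNA replication the 3 with the smallest p from 36 to 72 h. Alternatives were quantile normalization, median centring, normexp background, a generalised log, a filter on dim probes, a variance trend, a replicate block, the other probe, fits of 2 groups, the methods' t-test and leaving out each array. The regression over time (maSigPro) by which the study picked changed array probes was not run here. Promoters came from RefSeq (GRCm38.p6), and motifs were matched exactly on both strands with Python 3.11.15. No column of other samples was used.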

Additional observations from a re-analysis of the deposited data

Results flagged for a closer look

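In 16 of the 175 groups of 5 livers examined (35 genes in 5 groups), 1 liver stood far from the other 4 relative to the range of its group. Chance alone marks about 1 group in 20. The genes shifted together within a liver, so that the 175 groups are not independent, and the count was not tested against that rate. Sham replicate 5 accounted for 4 of the 16. It was high in Ccna2 (8.07 against 7.03 in the nearest liver), Cdk1 (8.58 against 7.40), Cdkn3 (7.59 against 6.54) and Kif20a (8.25 against 7.45), all log2 intensities. Sham replicate 1 was low in Gtse1 (6.40 against 6.68).

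At 4 h, replicate 2 was high in Nuf2 (7.10 against 6.50) and Top2a (7.29 against 6.98), and replicate 5 was low in Prc1 (6.29 against 6.52). At 12 h, replicate 1 was high in Mad2l1 (9.25 against 8.87) and Esco2 (7.22 against 6.37), replicate 2 was high in Kif23 (7.13 against 6.0), and replicate 3 was low in Ndc80 (5.65 against 5.94). At 36 h, replicate 5 was low in Nek2 (8.29 against 8.64). At 72 h, replicate 1 was low in Cdkn3 (10.62 against 11.77) and Mad2l1 (11.49 against 11.88), and replicate 4 was high in Nek2 (9.16 against 8.67).

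The differences from the shared sham group at 36 and 72 h differed from each other, by the limma contrast of the 2 times, in 12 of the 35 genes. Higher at 72 h were Cdkn3 (2.97), Ccnb2 (2.11), Pttg1 (1.58), Kif20a (1.07), Cdc25c (0.84) and Cenpa (0.70). Lower at 72 h were Esco2 (-1.44), Top2a (-0.80), Aurkb (-0.79), Gtse1 (-0.59), Ndc80 (-0.55) and Melk (-0.53).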

How the results depend on the processing

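The 35 higher genes at 36 h and at 72 h were called under every alternative run. From 12 to 36 h they were too, except Kif23 by the adjusted t-test (34 genes, adjusted p = 0.0693). No single-gene call changed direction, whereas the median from 36 to 72 h (-0.07) was 0.08 without replicate 2 and 0.10 without replicate 3 at 36 h. At 4 h, where no gene was called higher, 1 was with median centring (Cenpa), 1 on the generalised log scale (Gtse1), 1 without the dimmest 30% of probes (Cenpa), 3 in a fit of the 2 groups, and 1 and 5 by the methods' t-test adjusted and unadjusted. At 12 h, Bub1b was the 1 gene called higher on the generalised log scale, in the 2-group fit and by the t-test, adjusted (1) or not (1). From 4 to 12 h it was the 1 gene higher in the 2-group fit and by the t-test, adjusted (1) or not (1). Genes lower at 12 h numbered 7 on the generalised log scale (2 in the analysis reported). From 4 to 12 h, 18 were lower on the generalised log scale, 16 in the 2-group fit, and 10 and 21 by the t-test adjusted and unadjusted (3 reported). From 36 to 72 h, 0 were lower on the generalised log scale, 2 in the 2-group fit, and 1 and 3 by the t-test adjusted and unadjusted (6 reported). The cause of these differences was not tested.

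With each array left out, genes higher at 4 h numbered 0 to 1, at 12 h 0 to 1, from 4 to 12 h 0 to 0 and from 36 to 72 h 5 to 8. Genes lower numbered 0 to 0 at 4 h, 1 to 3 at 12 h, 2 to 5 from 4 to 12 h and 2 to 8 from 36 to 72 h. At 36 h, at 72 h and from 12 to 36 h the numbers were 35 to 35 higher and 0 to 0 lower. Replicate numbers did not pair the livers (8 of 50 same-numbered pairs correlated above 0.1, and 4 of 25 arrays correlated best with their own number). With the replicate number as a block, 5 genes were lower from 36 to 72 h (6 without it), since Aurkb missed the threshold (adjusted p = 0.0539), and all other counts were equal. For single genes and medians, 437 values kept their call or, for medians, moved by less than the spread between livers, and 61 lost the call. On the generalised log scale 6 medians moved further, to 0.49 at 4 h, -0.51 at 12 h, 3.65 at 36 h, 3.85 at 72 h, -0.99 from 4 to 12 h and 4.14 from 12 to 36 h. Dim probes limit the smaller differences, and 5 livers per group limit the calls near the threshold.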
